A study of Mus musculus with 89 samples.

Results

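Squamous cell carcinomas of mice sampled at relapse after treatment were compared between the tumour interface and the surrounding stroma. The 36 segments (22 interface, 14 stroma) are those that the authors' annotation places at relapse and at either location, out of 89 segments in the series, with no acute segment pooled in. Each segment is an area of a frozen tumour section chosen on a stained image, from which ultraviolet light released the oligonucleotide tags of probes bound to RNA (GeoMx, mouse whole-transcriptome probes), giving counts for 19962 targets. All 89 segments carry 1 label, neutrophil, from the tumour microenvironment of spontaneous carcinomas, and the series asks how neutrophils in its different regions respond to immunotherapies, which the labels do not name. The relapse segments are post-treatment in the annotation, and their slide is named by the word treated and its scan by the words DMBA Relapse (DMBA is a skin carcinogen). The naive segments used further on (13 interface, 15 stroma) are pre-treatment, and their scan name carries the words naive UP HRass, which point to another tumour model; which words hold was not settled here. Genotype, sex, age and number of the animals are not stated, so segments were the unit, and segments of 1 animal or piece of tissue are not independent.

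Neutrophils are short-lived granulocytes that enter tumours from the blood, where they can sit in the stroma or press up against nests of cancer cells. The interface is the border where malignant keratinocytes, which build their cytoskeleton from keratins, meet fibroblasts, macrophages, vessels and lymphocytes. Basal keratinocytes make the pair KRT5 and KRT14, wounded or hyperproliferative epidermis adds KRT6, KRT16 and KRT17, and plasma cells fill their cytoplasm with immunoglobulin RNA. A segment is not a pure cell population, so a share of counts reflects every cell under the illuminated area.

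Depth was shallow, and its ranges at both locations overlapped. Counts above the floor, the deposited minimum of 1 count per target, ran from 573 to 14294 (median 3570.0) at the interface and from 1807 to 20415 (median 3964.0) in stroma. Mean log2 depth was lower at the interface by a difference of -0.48, which did not pass a two-sided permutation test over segments (p = 0.221). Between 53.7% and 98.3% of targets (median 88.7%) were at the floor in a segment. Nuclei, segment area, negative-probe level and number of targets above the limit of quantitation (at least 2 counts, set from the negative probes, and to be exceeded) gave adjusted p-values of 0.338 to 0.511 in the same permutation test over this family of 4. The interface held a median of 54.5 nuclei (33 to 91) and the stroma 57 (20 to 108).

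**Figure D1:**
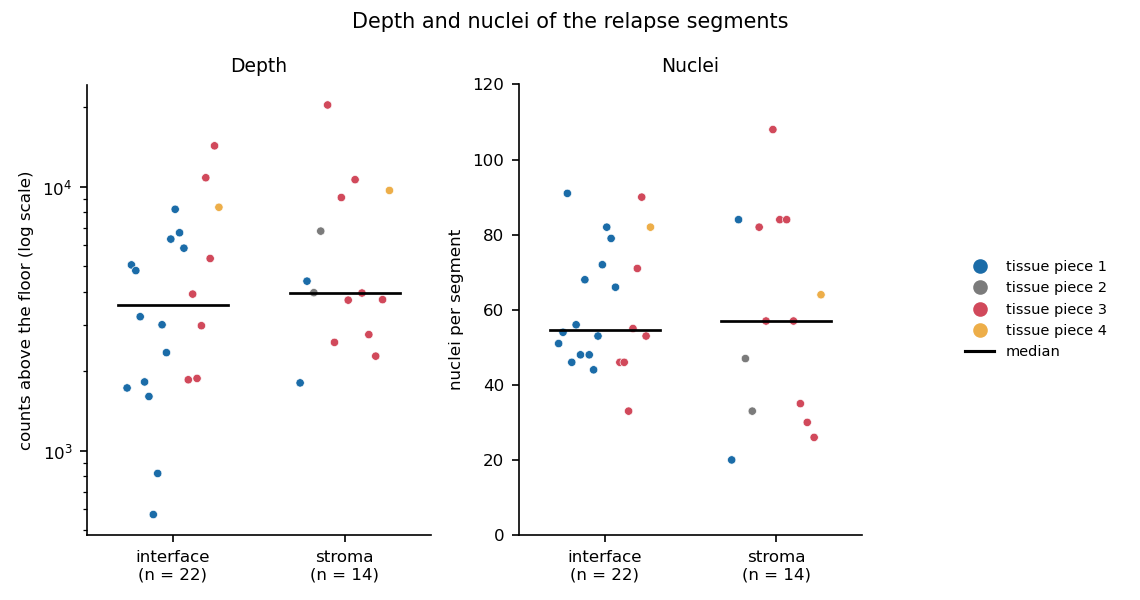
Counts above the floor per segment on a log axis (left) and nuclei per segment (right) for 22 interface and 14 stroma segments, coloured by the piece of tissue, with the median as a line. The locations overlap, and the 2 segments under 1000 counts are interface segments of piece 1.

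The segments lay on 4 separate pieces of tissue, read from their positions on the slide, and location was spread unevenly over them. Piece 1 held 14 interface and 2 stroma segments, piece 2 held 2 stroma segments, piece 3 held 7 interface and 9 stroma segments, and piece 4 held 1 of each. Piece 3 is therefore the only piece with several segments on both sides, and its difference stands beside the pooled one for the main targets.

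The neutrophil transcripts Ly6g, Csf3r and Cxcr2 were mostly at the floor at both locations, as most targets of the panel were. Ly6g, a surface protein specific to mouse neutrophils, lay at the floor in 20 interface segments (of 22) and 10 stroma segments (of 14) and never exceeded 2 counts. Csf3r, the receptor for granulocyte colony-stimulating factor, was at the floor in 21 and 10 segments, and Cxcr2, a chemokine receptor that draws neutrophils into tissue, in 19 and 13. S100a8, a calcium-binding protein abundant in neutrophils and also made by stressed keratinocytes, reached 7 counts at the interface and 5 in stroma, with a log2 difference of 0.17 ± 0.26 (SE; limma adjusted p = 0.920). Of the 18 neutrophil targets, 2 were above the limit in at least 10% of relapse segments and could be tested, S100a8 and S100a9. They exceeded it in 18 and 13 of the 36 segments. Another 6 never exceeded it in any relapse segment (Ly6g, Mmp8, Mpo, Ltf, Lcn2 and Itgam). Of all 19962 targets, 1756 could be tested and 6272 never exceeded the limit. The neutrophil counts are near these shares and are not a result about neutrophils. At this depth these transcripts could not show whether the labelled cell type was present, and the segments are called here by their location.

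Of 1756 tested targets, 1 differed between the locations (0.0569%). This was Wfdc17, a small secreted whey acidic protein known from activated macrophages, and it fell at the interface. The count of Wfdc17 was 1 to 3 (median 1.0) at the interface and 1 to 11 (median 2.0) in stroma, and 20 of 22 interface segments but 3 of 14 in stroma were at the floor. The interface segments were thus nearly all without a signal while most stroma segments had a low one, and the ranges overlapped between 1 and 3 counts. On the scale of log2(deposited value + 1), with log2 depth as a covariate, Wfdc17 fell by 1.05 ± 0.23 (SE; limma adjusted p = 0.0228; 95% interval -1.5 to -0.59). In these bulk segments, fewer cells of a type and less RNA per cell cannot be told apart.

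The call on Wfdc17 rests on few counts and few segments. In piece 1 none of 14 interface and 1 of 2 stroma segments had over 1 count. In piece 3 the numbers were 1 of 7 interface and 8 of 9 stroma segments, and the log2 difference there was -1.20 ± 0.34 (SE; limma adjusted p = 0.761). With a fixed term for the piece Wfdc17 was -0.74 (limma adjusted p = 0.858), and the call was also lost without stroma segment 8 (limma adjusted p = 0.0740), 11 (0.157) or 13 (0.124), or without interface segment 20 (0.0627) or 22 (0.0701). Leaving out a whole piece ended the call for piece 1 (limma adjusted p = 0.947), piece 2 (0.117) and piece 3 (0.493), and not for piece 4 (0.00101). Segments share tissue pieces, so these p-values over segments are too small.

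The promoters of Wfdc17, Krt5 and Krt14 are shown because Wfdc17 is the target that passed the test and the keratins are the abundant tumour-cell transcripts described next. Each line gives 120 bases up to the base before the annotated start, from RefSeq on build GRCm38.p6, 5′ to 3′ on the strand of the gene. Krt16 and Krt6a were not matched. Capitals mark GGAA on either strand (TTCC on the strand shown), the core that ETS-family factors such as PU.1 of myeloid cells bind.
Wfdc17: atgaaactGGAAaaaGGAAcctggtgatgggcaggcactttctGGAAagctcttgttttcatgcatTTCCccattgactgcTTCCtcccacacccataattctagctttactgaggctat
Krt5: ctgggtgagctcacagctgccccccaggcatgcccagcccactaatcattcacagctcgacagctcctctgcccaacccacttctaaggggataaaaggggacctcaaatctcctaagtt
Krt14: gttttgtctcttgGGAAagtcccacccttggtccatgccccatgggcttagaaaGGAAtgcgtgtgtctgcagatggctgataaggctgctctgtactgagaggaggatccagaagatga
The Wfdc17 stretch lies at chr11:83703936-83704055 on the plus strand and held 5 matches. The Krt5 stretch at chr15:101712906-101713025 on the minus strand held 0, and the Krt14 stretch at chr11:100206031-100206150 on the minus strand held 2. At least 1 match occurred in 73.4% of 32851 promoter stretches of the same length, with a median of 1.0. None of the 3 stretches held TATAAA on either strand (6.34% of stretches) or TGANTCA (3.41% of stretches).

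Keratins were the leading targets on the interface side, and none passed the test. Krt14, the type I partner keratin of basal keratinocytes, took 0 to 128 counts per 10000 counts above the floor (median 47.3) at the interface and 3.10 to 38.7 (median 19.2) in stroma. Its log2 difference was 0.95 ± 0.35 (SE; 95% interval 0.27 to 1.64; limma adjusted p = 0.672). Every stroma value lay inside the interface range, and the interface segments above it were spread over pieces 1 and 3. Krt5, the type II partner, took 0 to 53.9 per 10000 (median 17.8) at the interface and 0 to 31.1 (median 8.77) in stroma. Its log2 difference was 0.85 ± 0.33 (SE; 95% interval 0.20 to 1.5; limma adjusted p = 0.672), again with stroma inside the interface range.

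The stress keratins ran the same way. Krt16, which epidermis switches on in wounds and in carcinoma, took 3.95 to 90.7 per 10000 (median 32.6) at the interface and 1.96 to 34.9 (median 14.1) in stroma. Its log2 difference was 0.84 ± 0.33 (SE; 95% interval 0.18 to 1.5; limma adjusted p = 0.672). It was over the floor in all 36 segments, and the lowest segment of all was in stroma. Krt6a, a type II partner of KRT16, had medians of 32 at the interface and 16.3 in stroma and a log2 difference of 0.87 ± 0.33 (SE; limma adjusted p = 0.672). Krt17 and Krt6b, of the same group, differed by 0.78 ± 0.28 and 0.67 ± 0.34 on the log2 scale (SE; limma adjusted p = 0.672 and 0.772).

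Of 10 basal keratinocyte targets 3 could be tested, and of 4 stress keratins all 4. None of these 7 was called, against 0.0569% of all targets. The keratins among them all had fitted differences above 0, as had 994 of all 1756 tested targets. Itga6, a laminin-binding integrin subunit, was at 0.00 ± 0.20 (SE) and changed sign in 12 of 54 alternative settings. The median log2 difference was 0.85 for the basal list and 0.81 for the stress keratins, beside 0.04 over all 1756 tested targets. The basal median is the value of Krt5 itself. Krt5 and Krt16 were markers given beforehand, so these medians give no independent support. Within piece 3 the log2 difference was 1.15 ± 0.41 for Krt14, 0.99 ± 0.44 for Krt16, 0.77 ± 0.42 for Krt5 and 0.73 ± 0.43 for Krt6a (SE), beside a median over all tested targets of -0.10. Krt5, Krt14, Krt16, Krt6a, Krt6b and Krt17 stayed above 0 in each of 55 alternative settings.

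Shares of the keratins moved together from segment to segment, to a degree that differed between pairs and locations. Spearman's rho over the 36 segments was 0.746 between Krt16 and Krt6a, 0.704 between Krt14 and Krt16, 0.687 between Krt5 and Krt14, and 0.470 between Krt5 and Krt16, as a description of shares that have the same total and depth. For these pairs in that order it was 0.736, 0.805, 0.566 and 0.515 within the interface. Within stroma it was 0.657, 0.433, 0.789 and 0.279. With Ighm, Krt5 had a rho of 0.038 and Krt14 of 0.353.

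**Figure D2:**
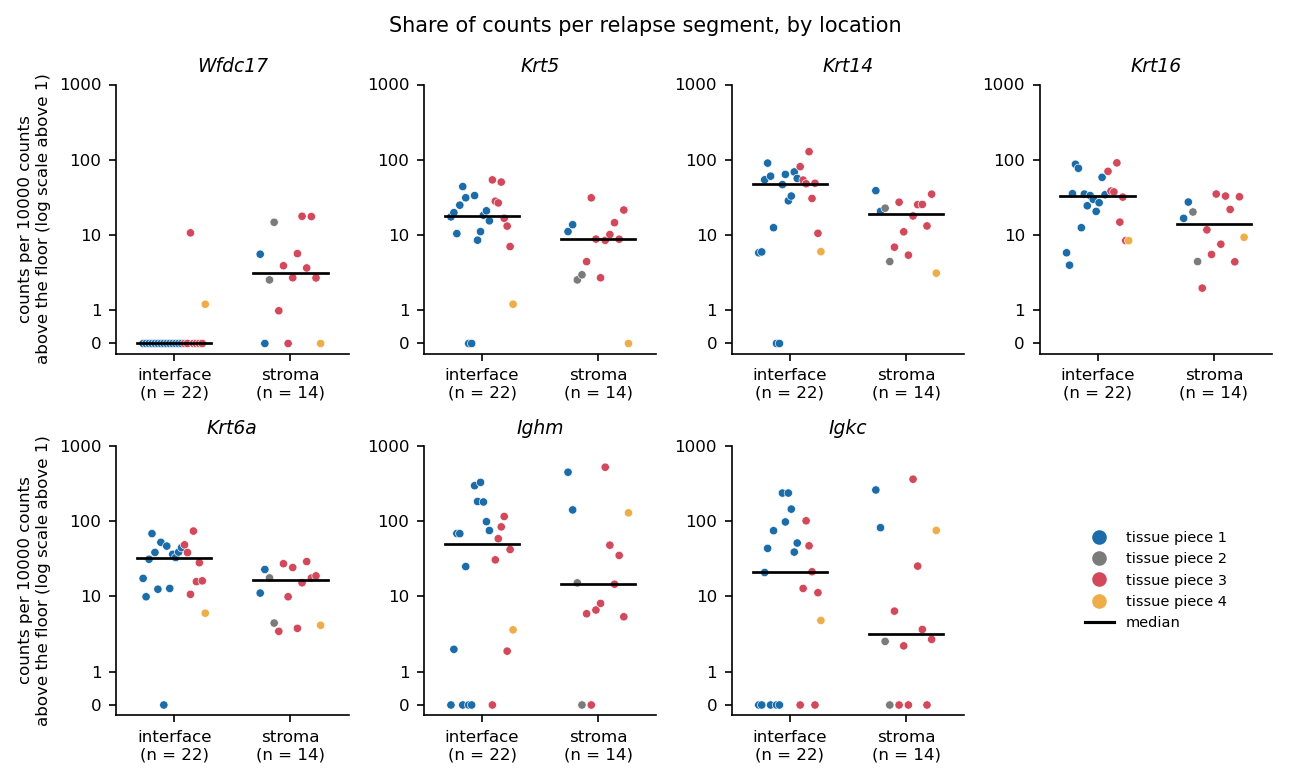
Share of counts of 7 targets in each relapse segment, as counts per 10000 counts above the floor (log axis above 1, linear below), for 22 interface and 14 stroma segments coloured by piece of tissue, with the median as a line. Wfdc17 is at 0 in 20 interface segments, the 4 keratins have higher medians at the interface with overlapping ranges, and Ighm and Igkc span from 0 to 237 or more at both locations.

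Other epithelial targets were fewer in counts. Of 19 targets of keratinocyte differentiation 12 were tested, 11 had a fitted difference above 0, and 0 were called, with a median of 0.31. Fabp5, a fatty acid carrier of squamous epithelium, had a median of 31.1 per 10000 at the interface (0 to 57.1) and 15.6 in stroma (4.13 to 37.5), with a log2 difference of 0.60 ± 0.33 (SE; limma adjusted p = 0.777). Dsp, the plaque protein of desmosomes, exceeded the limit in 8 interface segments and 1 stroma segment, and its log2 difference was 0.65 ± 0.21 (SE; limma adjusted p = 0.672). Krt1, a keratin of suprabasal cells, differed by 0.57 ± 0.30 (SE; limma adjusted p = 0.775). Of 12 targets of the invasive front 2 were tested, Mmp3, a matrix metalloproteinase, at -0.17 and Tnc, a matrix glycoprotein, at -0.27 on the log2 scale.

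Immunoglobulin transcripts ranged widely at both locations, and neither chain passed the test between them. Ighm, the heavy chain of IgM, took 0 to 328 per 10000 (median 50.3) at the interface and 0 to 522 (median 14.8) in stroma. The log2 difference was 0.58 ± 0.49 (SE; 95% interval -0.39 to 1.55; limma adjusted p = 0.859), and both locations held segments at 0 and segments at 328 or more. Igkc, the kappa light chain, took 0 to 237 (median 21) and 0 to 362 (median 3.15), with a log2 difference of 0.88 ± 0.50 (SE; limma adjusted p = 0.777). The Ighm difference changed sign in 3 of 55 alternative settings and was -0.59 with a fixed term for the piece, where that of Igkc was -0.36.

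The tissue piece moved with these values. In piece 1 Ighm had a median of 68.5 per 10000 in 14 interface segments and of 295 in 2 stroma segments, and in piece 3 of 42 in 7 interface and 8.06 in 9 stroma segments. Ighm and Igkc ranked the 36 segments nearly alike, with a Spearman's rho of 0.917. Of 16 targets of B cells and plasma cells 11 were on the panel and 5 were tested. Jchain, which joins IgM and IgA into polymers, differed by 0.03 ± 0.25 on the log2 scale (SE; limma adjusted p = 0.989). Ms4a1, a membrane protein of B cells, reached at most 4 counts in any relapse segment.

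Targets of fibroblasts and macrophages had wide and overlapping levels, and the fibroblast list had no steady direction: its median was 0.12 with the floor set to 0 and 0.14 with a fixed term for the piece. Of 16 fibroblast and matrix targets 12 were tested, 5 had a fitted difference above 0, and 0 were called (median -0.02). Col1a1, the main chain of type I collagen, took 0 to 74.8 per 10000 (median 21.6) at the interface and 0 to 162 (median 8.40) in stroma, with a log2 difference of 0.40 ± 0.38 (SE; limma adjusted p = 0.874). Col3a1, of type III collagen, had medians of 7.57 and 4.22 and a difference of -0.19 ± 0.36 (SE; limma adjusted p = 0.946). Single stroma segments were high in several of these at once: stroma segment 8 of piece 2 had 72 counts of Col1a1, 88 of Apoe, 38 of Ccl8 and 24 of Ctsl, with 11 of Wfdc17.

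Of 14 macrophage targets 11 were tested, 3 had a fitted difference above 0, and 0 were called (median -0.28; -0.10 with a fixed term for the piece, and -0.0061 with 5 above 0 when counts were thinned to 1500 per segment). Apoe, a lipid carrier abundant in tissue macrophages, took 0 to 37.4 per 10000 (median 6.19) at the interface and 0 to 128 (median 3.26) in stroma, with a log2 difference of -0.28 ± 0.40 (SE; limma adjusted p = 0.906). Ctsl, a lysosomal protease, was at the floor in 17 segments at the interface (maximum 2 counts) and in 6 in stroma (maximum 24 counts). Its log2 difference was -0.73 ± 0.25 (SE; limma adjusted p = 0.672). Ctsl exceeded the limit in 0 interface and 5 stroma segments. It thus passed the filter only through stroma, and the sign of its difference is not a result. Adgre1, which encodes F4/80, differed by -0.32 (limma adjusted p = 0.797). The chemokine Ccl8 had 0 to 43.6 per 10000 (median 0) at the interface and 0 to 54.5 (median 2.81) in stroma, with a difference of -0.56 ± 0.33 over all pieces (SE; limma adjusted p = 0.777) and of -1.12 ± 0.41 in piece 3. Of 15 chemokine targets 3 were tested and 1 was above 0. The others beside Ccl8 were Ccl6 at -0.46 (limma adjusted p = 0.715) and Cxcl2 at 0.13 (limma adjusted p = 0.892).

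Antigen presentation targets went both ways without a call. The 5 tested members of MHC class I were all below 0, with a median of -0.29. With a fixed term for the piece their median was -0.06 and 1 was above 0, and with thinned counts 2 were above 0 (median -0.24). B2m, the invariant light chain, had a log2 difference of -0.35 ± 0.31 (SE; limma adjusted p = 0.862). The 3 tested members of MHC class II were all above 0, with a median of 0.24. H2-Ab1, a class II beta chain, exceeded the limit in 7 interface segments and 1 stroma segment and differed by 0.53 ± 0.21 (SE; limma adjusted p = 0.672). Of 17 interferon response targets 5 were tested and 2 were above 0. T and NK cell targets (11 on the panel) and endothelial targets (8) were too low for any to be tested.

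**Figure D3:**
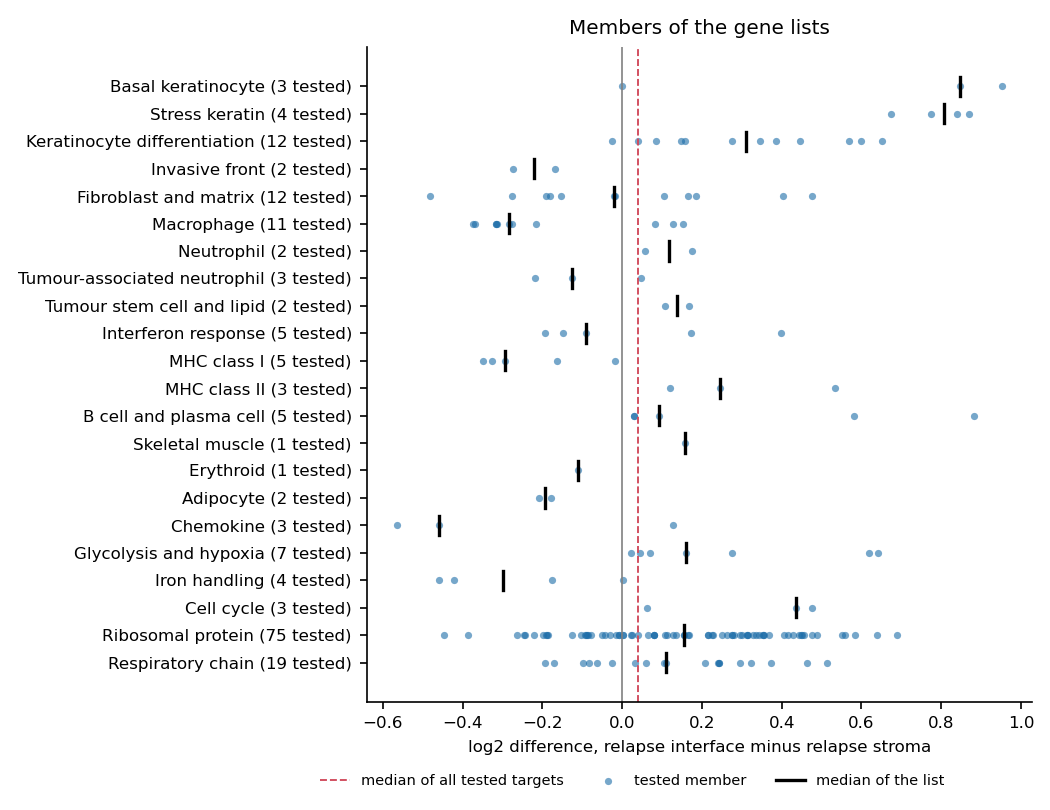
Log2 difference, relapse interface minus relapse stroma, of each tested member of the gene lists, with the median of the list as a bar, the median of all 1756 tested targets (0.04) as a dashed line and 0 as a solid line. The medians of the basal and stress keratin lists lie farthest to the right, though Itga6 of the basal list is at 0.00. Igkc, of the B cell and plasma cell list, is at 0.88. Macrophage, MHC class I and chemokine members lie mostly to the left, and no member shown passed the test.

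Housekeeping and proliferation lists had medians above 0 at the interface, those of glycolysis and ribosomal proteins not in all scalings (-0.01 for glycolysis with the same total in each segment, and -0.0017 for ribosomal proteins with log2 nuclei as the covariate). The cell cycle median of 0.44 came from 3 tested targets of 10, and it was 0.07 with thinned counts. Eno1 and Tpi1, enzymes of glycolysis, differed by 0.64 ± 0.27 (limma adjusted p = 0.715) and 0.62 (limma adjusted p = 0.672) on the log2 scale. All 7 tested members of glycolysis and hypoxia were above 0, with a median of 0.16. Of 75 tested ribosomal proteins 52 were above 0 (median 0.16), and of 19 tested respiratory chain members 13 (median 0.11), beside 994 of all 1756 targets. Of the cell cycle targets, Pcna, the sliding clamp of DNA replication, differed by 0.48 (limma adjusted p = 0.715) and Ccnb1 by 0.06 ± 0.21 (SE; limma adjusted p = 0.976). Cdk1, the kinase that drives mitosis, exceeded the limit in 4 interface and 0 stroma segments and differed by 0.44 ± 0.17 (SE; limma adjusted p = 0.672). It passed the filter only through the interface, so the sign of its difference is not a result. With thinned counts Cdk1 was at 0.03. Of 4 tested targets of iron handling, 1 was above 0, and Fth1 and Ftl1, the ferritin chains, were at -0.42 and -0.46 (limma adjusted p = 0.835 and 0.797).

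Apart from the keratins, targets with large test statistics on the interface side included low ones. Eif4a1, a translation initiation helicase, differed by 0.69 ± 0.25 and Glo1, which detoxifies methylglyoxal, by 0.57 ± 0.20 (SE; limma adjusted p = 0.672 for both). On the stroma side Rrad, a small GTPase, was at -0.48, Ifi30, a lysosomal thiol reductase, at -0.50 and Clk1, a splicing kinase, at -0.46 (limma adjusted p = 0.672, 0.715 and 0.765). The ribosomal proteins Rpl4 (0.69) and Rps27 (0.64) and the olfactory receptor Olfr190 (0.59) were also among the 10 with the largest statistics at the interface, counting only targets above the median level of those tested, and Tmem92 (-0.55), Ttll2 (-0.55), Vmn2r62 (-0.48), Scand1 (-0.43) and Olfr1537 (-0.42) among the 10 in stroma under the same limit. Glo1 exceeded the limit of quantitation in 6 interface and 0 stroma segments, Rrad in 0 and 5, and Scand1 in 0 and 4. Each passed the filter through a single location, so the sign of its difference is not a result.

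**Figure D4:**
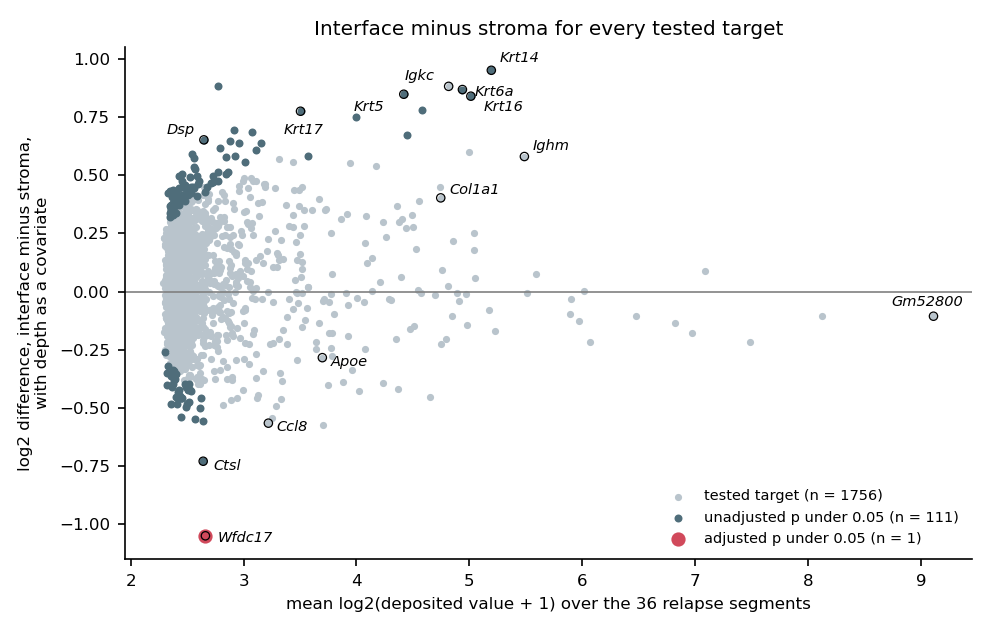
Log2 difference, interface minus stroma with depth as a covariate, against the mean of log2(deposited value + 1) over the 36 relapse segments, for 1756 tested targets. The 111 targets with an unadjusted p under 0.05 are dark, Wfdc17 is the 1 target with an adjusted p under 0.05, and the 6 basal and stress keratins named in the text lie between 0.67 and 0.95.

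Of all 1756 tested targets, 111 had an unadjusted limma p under 0.05, a threshold that a share of about 0.05 passes with no difference. These 111 are therefore not a set of differences. Of them, 73 were higher and 38 lower at the interface. This balance depended on the scaling: with counts above the floor set to the same total in each segment, the numbers were 24 higher and 86 lower, the median of all tested targets moved from 0.04 to -0.07, and Krt14, Krt16 and Krt5 were at 0.71, 1.05 and 0.85. Within the interface, 13 segments carried a Cancer tag in the annotation and 9 did not. Of 1264 targets tested between these, 0 were called by limma, and 40 had an unadjusted p under 0.05. Krt14 differed by 0.25 ± 0.43 and Krt5 by -0.09 ± 0.44 on the log2 scale (SE; tag minus no tag).

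The highest shares of counts went mostly to predicted genes and unnamed loci. Gm52800, a predicted gene, took 108 to 908 counts per 10000 (median 423) at the interface and 216 to 681 (median 419) in stroma, with a log2 difference of -0.11 ± 0.12 (SE; limma adjusted p = 0.892). LOC118568634 and LOC118568632, also unnamed loci, had interface medians of 197 and 128. Chic2, a membrane protein, and Lrr1, a subunit of a ubiquitin ligase, had 111 and 105. The other high targets were Gm52436, Gm21783, Gm6958, Ighm and Igkc. Apart from the immunoglobulins, the members of this group were above the limit in all 36 segments.

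The location difference was then set against that of the naive slide, which asks whether interface and stroma differ in the same way before treatment and at relapse. Of 4901 targets tested for this interaction, 160 were called (3.26%), 157 with a higher interface-minus-stroma value at relapse (3.2%) and 3 with a lower one (0.0612%). At relapse alone 1756 targets passed the filter, so most of the 4901 passed mainly through naive segments. A target high in naive stroma and near the floor at relapse tends to a higher value by this choice. The balance of 157 to 3 is therefore not a result about relapse. Apoe, Col3a1 and Hp, which had among the largest test statistics, were far lower at the interface than in stroma on the naive slide, with differences nearer 0 on the relapse slide. The naive slide was deeper. There the ribosomal protein Rpl17 had median counts of 19 (interface) and 14 (stroma), beside 7.5 and 8.5 at relapse, though its shares were lower. The relapse differences are thus from the slide with counts nearer the floor, and the part of depth was not tested. Segments share animals and pieces, so the p-values are too small, and stage, slide, collection plate and perhaps tumour model cannot be told apart.

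Col3a1 shows the pattern. On the naive slide it took 1.27 to 82.5 per 10000 (median 2.11) at the interface and 2.87 to 115 (median 59.97) in stroma, a log2 difference of -3.23 ± 0.32 (SE). At relapse the medians were 7.57 and 4.22, and the interaction was 3.08 ± 0.57 (SE; limma adjusted p = 0.000340). Col1a1 at 2.76, Col1a2, the other chain of type I collagen, at 2.46 and Postn, a matricellular protein, at 2.31 were also called higher (limma adjusted p = 0.000794, 0.00129 and 0.00129). No count is given over the lists, because some of their members passed the filter mainly through the naive stroma, where they were high. Apoe was at 0.33 in the naive interface (median; 0 to 120) and at 41.6 in the naive stroma (0.96 to 114), and its interaction was 3.65 ± 0.65 (SE; limma adjusted p = 0.000337). Of the other macrophage targets, Ctsd and Ctss, lysosomal proteases, had interactions of 1.80 and 1.57 (limma adjusted p = 0.00869 and 0.0305).

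Hp, the haemoglobin-binding serum protein, had an interaction of 2.41 ± 0.44, and Lgals1, a galactose-binding lectin, of 1.96 ± 0.38 (SE; limma adjusted p = 0.000337 and 0.000517). B2m was at 2.44 (limma adjusted p = 0.00129), and the class II chains H2-Aa and H2-Ab1, both also tested at relapse alone, were at 1.40 and 1.26 (limma adjusted p = 0.00869 and 0.0215). The 3 lower calls were Gm52800 at -0.71, LOC118568634 at -0.79 and Srsx at -1.46 (limma adjusted p = 0.0145, 0.0227 and 0.0496).

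Among keratins, Krt5 and Krt16 were called in the interaction. On the naive slide Krt5 had medians of 0 at the interface (0 to 1.62 per 10000) and 0.40 in stroma (0 to 6.50), with a difference of -1.17 ± 0.26, beside 0.85 ± 0.33 at relapse, and its interaction was 1.97 ± 0.46 (SE; limma adjusted p = 0.00499). Krt5 exceeded the limit in 0 of 13 naive interface and 5 of 15 naive stroma segments, with at most 3 and 43 counts. At relapse it did so in 19 of 22 interface and 11 of 14 stroma segments, with at most 19 and 10 counts. Krt16 had naive medians of 1.06 and 2.08 and an interaction of 1.59 ± 0.50 (SE; limma adjusted p = 0.0496). Krt14 and Krt6a had interactions of 0.95 and 1.33 and did not pass (limma adjusted p = 0.391 and 0.117). Wfdc17 was lower at the interface on the naive slide too (-1.48 ± 0.29, SE), and its interaction of 0.45 did not pass (limma adjusted p = 0.610). Ighm had an interaction of -0.07 (limma adjusted p = 0.972).

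**Figure D5:**
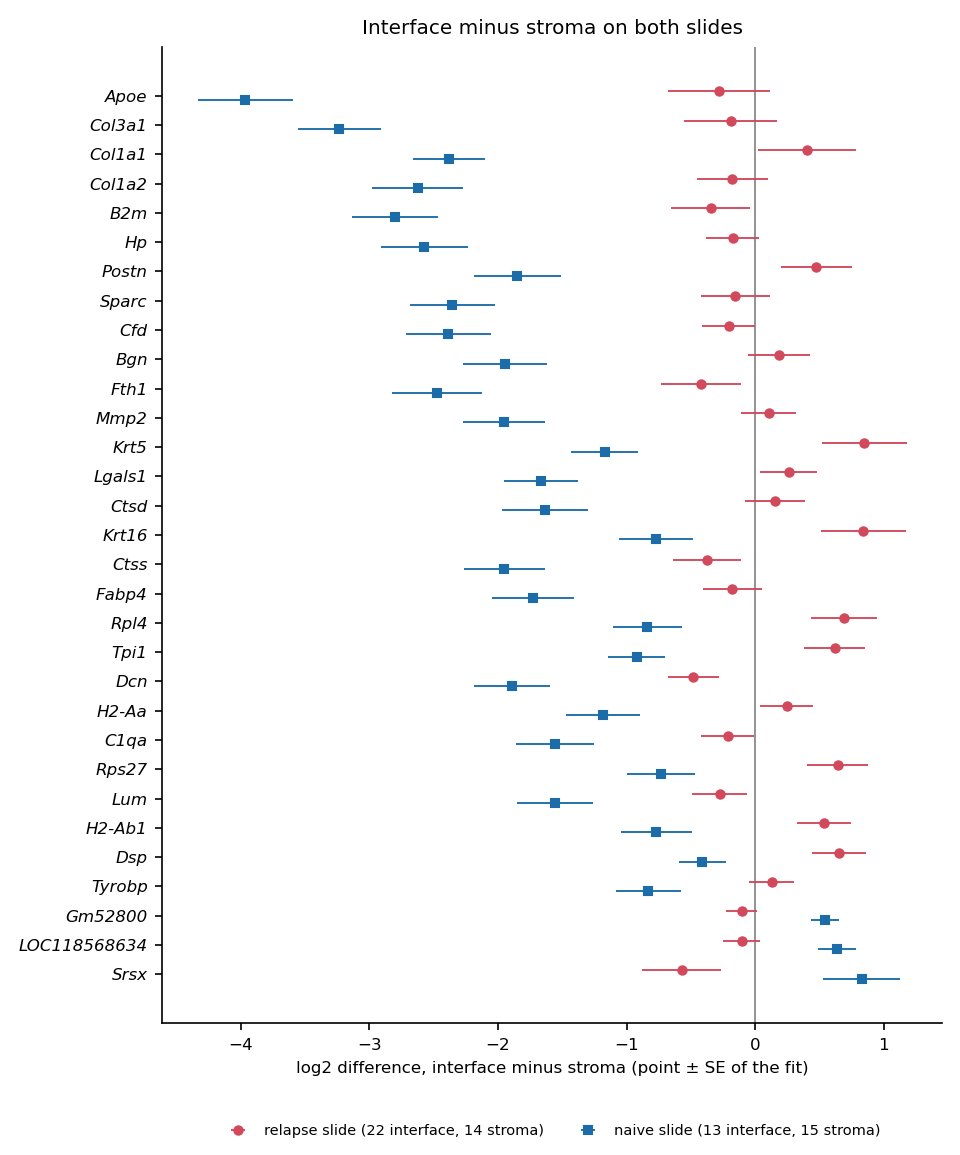
Log2 difference, interface minus stroma, on the relapse slide (circles) and on the naive slide (squares) for 31 named or listed targets called in the interaction that were tested on both slides, with the SE of each fit. On the naive slide Apoe, Col3a1, Col1a1, B2m and Hp lie between -3.96 and -2.38, and on the relapse slide between -0.35 and 0.40.

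The number of interaction calls depended on depth and tissue piece. With counts set to the same total, 5 targets were called (Apoe, Cd74, Col1a1, Col3a1 and Tmsb4x, all higher; Cd74 was above the limit in 2 relapse segments and was not tested at relapse alone), and the median over all tested targets moved from 0.15 to -0.09. With counts thinned to 1500 per segment, or with a fixed term for the piece, limma called 0, and 330 and 320 targets had an unadjusted p under 0.05. Leaving out relapse piece 1 gave 21 calls, relapse piece 3 gave 17 and naive piece 4 gave 18.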

How the data were processed

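Tag counts of 36 relapse segments, and of 28 naive segments for 1 comparison, were recovered from the deposited matrix. Its values are normalised signal, which the authors divided by an upper-quartile factor per segment; that deposited factor is a ratio, per the file headers. Value times factor was whole within a tolerance of 1e-06 for 99.99% of values, and 3 targets were not whole throughout. The submitters' processing notes name mm10 and Seurat; aligner: not given in the sources used here. The minimum of 1 count was the floor, and depth was the sum of counts in excess of it.

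Targets above a limit of quantitation (negative-probe geometric mean multiplied by the geometric SD raised to the power 2, and no lower than 2 counts) in at least 10% of segments, whatever their location, were tested with limma 3.58.1 (R 4.3.3, lmFit and eBayes with trend, two-sided, Benjamini-Hochberg at 0.05 over all tested targets) on log2(deposited value + 1), with log2 depth as a covariate. The interaction added slide, location and their product. Depth and segment properties used permutation tests with 100000 resamples. Pieces were separated by position gaps over 8000 units. The fits were tested on simulated data. Group labels came from the authors' annotation, and p-values over segments measure only the spread between segments, which share animals. Low counts carry large counting error, and no interval for it was computed.

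Named targets were the 3 given markers, every call, the 10 targets with the largest test statistic each way among the more abundant, up to 3 tested members of each list, the 10 with the highest share, and up to 5 interaction calls each way; some are not reported here, and others with values are list members named after their values were seen. The targets and gene lists were chosen with earlier results of these data known, so no list gives independent support.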

Additional observations from a re-analysis of the deposited data

Results flagged for a closer look

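The interaction of stage and location was the 1 kind of result that met a rule for closer inspection: the interface-minus-stroma difference at relapse differed from that on the naive slide by limma for 160 targets. The largest test statistics were those of Apoe (3.65), Hp (2.41), Pi16 (1.47), Col3a1 (3.08) and Lgals1 (1.96) on the higher side and Srsx (-1.46), LOC118568634 (-0.79) and Gm52800 (-0.71) on the lower side, as log2 values. Pi16 exceeded the limit in 1 relapse segment at each location, 7 of 15 naive stroma and 0 of 13 naive interface segments; it was not tested at relapse alone, so its value reflects its level in naive stroma. Hp exceeded the limit in 2 relapse segments at each location, while on the naive slide Hp was above the limit in 11 of 15 stroma and 2 of 13 interface segments. Stage, slide and collection plate cannot be told apart here. The naive slide was also deeper, and most targets tested for the interaction passed the filter mainly through naive segments.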

How the results depend on the processing

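The location comparison gave 0 calls with no filter, with a filter at 25% of segments (where Wfdc17 was not tested), thinned, with a fixed term for the piece, with log2 nuclei as the covariate, with all 89 segments in the fit, and in piece 3 alone. It gave 1 call, Wfdc17, without the depth covariate, with a pseudocount of 0.5 or 4, with the same total, with the floor set to 0, without segments under 1000 counts and with piece as a random block. Leaving out a piece or a segment gave 0 to 1 calls. The interaction gave 82 calls with the filter at 25%, 5 with the same total, 11 with the floor set to 0, 0 thinned, 0 with a fixed term for the piece and 79 where piece was a random block, and leaving out a piece gave 17 to 213. The causes were not tested. Depth and segment properties kept their side of the threshold in every setting run. The planned count model was not run: whole counts came from the deposited factors, and its condition, recovery of whole reads from the steps of the low values alone, was not met. Counts at or near the floor limit what can be seen for most targets. The labels give no replicate numbers, so the piece was the block.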
